A study of Rattus norvegicus with 24 samples.

Results

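The extracellular matrix genes measured here were the collagen chains, the laminin chains, the lysyl oxidases, the latent TGF-beta binding proteins, the matrix metalloproteinases with their tissue inhibitors, and 6 matrix proteins (Fn1, Fbn1, Eln, Sparc, Lum and Bgn). The rule that chose them used gene symbols and no measured value, although the set was proposed with earlier results of these data known. They comprised 127 of the 30367 probes of a rat array, for 95 gene symbols. Col4a3bp, a ceramide transfer protein, and Loxhd1, a hair cell protein, carry matching names without being matrix genes. Their 5 probes form a class of their own, yet they are counted in the totals of matrix probes and genes below. RNA came from the liver of male Wistar rats after 42 days on a diet with 1% cholesterol, which all 3 groups shared. Ch rats had that diet alone, ChGENE rats had 5% freeze-dried Geneva kiwifruit added to it, and ChHAYW rats had 5% freeze-dried Hayward kiwifruit. The labels give 8 rats a diet with 1 single-colour Agilent array each, the ages of the rats are not given in the sources used here, and rats without cholesterol were not analysed here. The comparisons ask which matrix genes differed in a cholesterol-loaded liver when either cultivar was eaten, and whether the cultivars differed from each other.

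In the liver, matrix is laid down mainly by stellate cells and portal fibroblasts. Fibrillar collagens are secreted as propeptide-bearing triple helices, trimmed, and joined into insoluble fibres by lysyl oxidases. Laminins are trimers of an alpha, a beta and a gamma chain that polymerise into basement membranes beside the type IV collagen network. Latent TGF-beta binding proteins store TGF-beta in the matrix, matrix metalloproteinases cut matrix proteins, and the tissue inhibitors block the metalloproteinases.

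The array reads each gene through probes of 60 bases, and 4 probes that the results turn on are shown to let a reader see which part of the transcript was read. All 4 lie in coding sequence, and the capitals in the Col1a1 probe mark the stop codon with which it ends. The Lamb3 probe (build rn4, chr13:109187343-109189861, plus strand) and the Ltbp4 probe (chr1:82386985-82387429, minus strand) each cover a genomic interval longer than the probe, so they cross an exon junction. The Loxl2 probe (chr15:50067990-50068049) and the Col1a1 probe (chr10:83637956-83638015), both on the plus strand, each lie within 1 exon.
Lamb3: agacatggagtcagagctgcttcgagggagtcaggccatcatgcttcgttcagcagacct
Ltbp4: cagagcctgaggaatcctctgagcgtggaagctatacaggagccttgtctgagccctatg
Loxl2: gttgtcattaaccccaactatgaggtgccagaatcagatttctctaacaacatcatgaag
Col1a1: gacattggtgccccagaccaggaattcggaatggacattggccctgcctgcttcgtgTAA

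RefSeq promoters (build GRCr8) were available for 73 of the 95 genes, and the 120 bases before the start of the 3 genes that passed the test are shown with the stretch between 2 genes that are read head to head. Capitals mark any match, on either strand, to 5 short motifs, whose share among the 250 bases before the start of all 33469 RefSeq promoters shows how common each is by itself. The GC box GGGCGG was held by 30.5% of promoters, the CCAAT box by 34.0% and the TATA box, searched as TATAAA, by 12.9%. The cAMP response element TGACGTCA was held by 1.59%, and the AP-1 element TGANTCA by 6.34%. The searched letters of one motif did not overlap those of another in the bases shown. The lines are Loxl4 (chr1:251365578-251365697, minus strand), Lamb3 (chr13:107362433-107362552, plus strand), Ltbp4 (chr1:91759808-91759927, minus strand) and the interval between the starts of Col4a1 and Col4a2 (chr16:84885521-84885596, plus strand).
Loxl4: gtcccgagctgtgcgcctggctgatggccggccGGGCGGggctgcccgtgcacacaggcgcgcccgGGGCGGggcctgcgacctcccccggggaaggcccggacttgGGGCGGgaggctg
Lamb3: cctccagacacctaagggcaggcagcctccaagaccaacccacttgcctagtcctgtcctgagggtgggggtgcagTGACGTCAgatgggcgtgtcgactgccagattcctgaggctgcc
Ltbp4: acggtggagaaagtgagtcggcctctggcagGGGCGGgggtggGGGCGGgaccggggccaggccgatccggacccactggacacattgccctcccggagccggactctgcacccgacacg
Col4a1 and Col4a2: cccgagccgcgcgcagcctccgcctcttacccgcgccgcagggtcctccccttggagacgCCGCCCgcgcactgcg
Loxl4 held 3 copies of GGGCGG and Ltbp4 held 2, while Lamb3 held the rarer TGACGTCA. A match describes letters and was not tested as a binding site.

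The scanner software marked each spot as well above background or not, and a probe is called above background on an array where this held for at least 1 in 2 of its spots. By that mark 37 matrix probes (34 genes) were above background on all 24 arrays, 73 on some and 17 on none. This was 29.1% of the matrix probes against 46.3% of all probes, and 8 genes had no probe above background on any array. The Ch arrays were dimmer, with a median of 60.5 matrix probes above background (43 to 77) against 72.5 in ChGENE (68 to 85) and 75 in ChHAYW (66 to 77). Levels below are log2 intensities after each array's 75th percentile was set to 0, and levels of different probes are not set against each other. The 8 arrays of a diet shared 1 slide, which means that effects of slide and diet cannot be told apart.

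In each diet 1 pair of arrays stood very close together (Ch 1 and 2, ChGENE 4 and 5, ChHAYW 6 and 7). Over the 14045 probes above background on all arrays, the robust SD of the difference within these 3 pairs was 0.151 to 0.171, against 0.249 to 1.04 in the other pairs of the 276. Their difference had 2.66 to 3.55 times the variance of spot noise within an array, against at least 7.42 times in every other pair. Repeat arrays of 1 RNA could also exceed that noise, so whether each close pair comes from separate rats cannot be told from these values. The p-values at 8 a diet follow the labels in taking all 24 arrays as separate rats. The lead genes are also given with the close pairs averaged, an alternative chosen after seeing the data that leaves 7 samples a diet. ChGENE 4 and 5 also stood apart in markers of neutrophils. Their summed levels, in units of the array's 75th percentile, were 32.9 and 34.3 against 0.531 to 1.73 on the other 22 arrays, and leaving both out was a second alternative added after seeing the data.

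In ChGENE against Ch, 3 matrix probes passed the test (limma, adjusted p under 0.05 over all 30367 probes and a fold change of at least 1.3), and all 3 were higher in ChGENE: Lamb3, Loxl4 and Ltbp4. Of all probes 0.319% passed, 0.0692% higher and 0.25% lower. All 3 genes stand in the study's own list of changed genes, so their calls are not independent evidence. With the close pairs averaged, or with ChGENE 4 and 5 left out, 0 matrix probes passed (0.0% and 0.0165% of all probes did). Leaving out 1 array at a time, Lamb3 and Ltbp4 passed in 6 of 16 fits and Loxl4 in 3. In whole liver, more cells of a type and more RNA per cell cannot be told apart. Before adjustment (p under 0.05, fold of 1.3 or more) averaging left 17 of 127 higher (2.42% of all probes) and 23 lower (20.6%), and leaving both arrays out left 13 (2.46%) and 25 (20.9%). The methods' t-test passed 4 matrix probes on the reported values, and the share of all probes that it passed is not given here.

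Lamb3 encodes the laminin beta-3 chain, a part of the laminin that anchors epithelia to their basement membrane. Its level ran from -4.15 through a median of -3.62 to -3.03 in Ch, from -3.11 through -2.33 to -1.68 in ChGENE, and from -4.29 through -3.80 to -2.88 in ChHAYW. Only 2 ChGENE arrays lay below the highest Ch array, while the ChHAYW arrays spanned the same range as Ch. Lamb3 was 2.48-fold higher in ChGENE than in Ch (log2 1.31, SE 0.221, limma adjusted p = 0.0340), and it was above background on 6 Ch, 8 ChGENE and 8 ChHAYW arrays. The difference was 1.21 (SE 0.230, adjusted p = 0.0951) with the close pairs averaged and 1.11 (adjusted p = 0.0754) without ChGENE 4 and 5. ChGENE minus ChHAYW was 1.35 (SE 0.234, adjusted p = 0.0596), with adjusted p = 0.218 when close pairs were averaged and 0.188 without ChGENE 4 and 5, and ChHAYW minus Ch was -0.03 (adjusted p = 0.925).

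Loxl4 encodes a lysyl oxidase, one of the enzymes that crosslink collagen and elastin, and was read by a pair of probes 863 bases apart on the transcript. At the first (chr1:248287124-248287183) levels ran from -4.47 through -3.62 to -2.93 in Ch, from -3.15 through -1.94 to -1.05 in ChGENE, and from -4.00 through -3.33 to -1.67 in ChHAYW. Of the ChGENE arrays, 1 lay below the highest Ch array. It was 2.92-fold higher in ChGENE than in Ch (log2 1.55, SE 0.320, limma adjusted p = 0.0487), with 1.35 (adjusted p = 0.0951) when close pairs were averaged and 1.21 (adjusted p = 0.0956) without ChGENE 4 and 5. The second probe (chr1:248286261-248286320) was above background on only 3 Ch, 7 ChGENE and 4 ChHAYW arrays and gave 0.47 (SE 0.283, adjusted p = 0.308), with 0.25 when close pairs were averaged and 0.21 without ChGENE 4 and 5. The 2 probes moved together across rats of a diet, with r = 0.83 between their deviations from the diet means, and only 1 of them passed. ChHAYW minus Ch was 0.44 (SE 0.325, adjusted p = 0.396) at the first probe and -0.07 at the second. At the first probe ChGENE minus ChHAYW was 1.11 (SE 0.371, limma adjusted p = 0.408) and did not pass. It was 0.85 with close pairs averaged and 0.77 without ChGENE 4 and 5.

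Ltbp4 encodes a latent TGF-beta binding protein that also takes part in elastic fibre assembly. Its levels ran from -2.51 through -1.88 to -1.27 in Ch, from -1.42 through -0.94 to -0.67 in ChGENE, and from -1.99 through -1.51 to -0.94 in ChHAYW. It was above background on all 24 arrays, and 1 ChGENE array lay below the highest Ch array. Ltbp4 was 1.88-fold higher in ChGENE than in Ch (log2 0.91, SE 0.158, limma adjusted p = 0.0364). This stayed at 0.92 (SE 0.181, adjusted p = 0.0951) with close pairs averaged and at 0.91 (adjusted p = 0.0794) without ChGENE 4 and 5. ChHAYW minus Ch was 0.33 (SE 0.173, adjusted p = 0.237). The direct difference between the cultivars, ChGENE minus ChHAYW, was 0.58 (SE 0.152, limma adjusted p = 0.232) and did not pass.

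**Figure D1:**
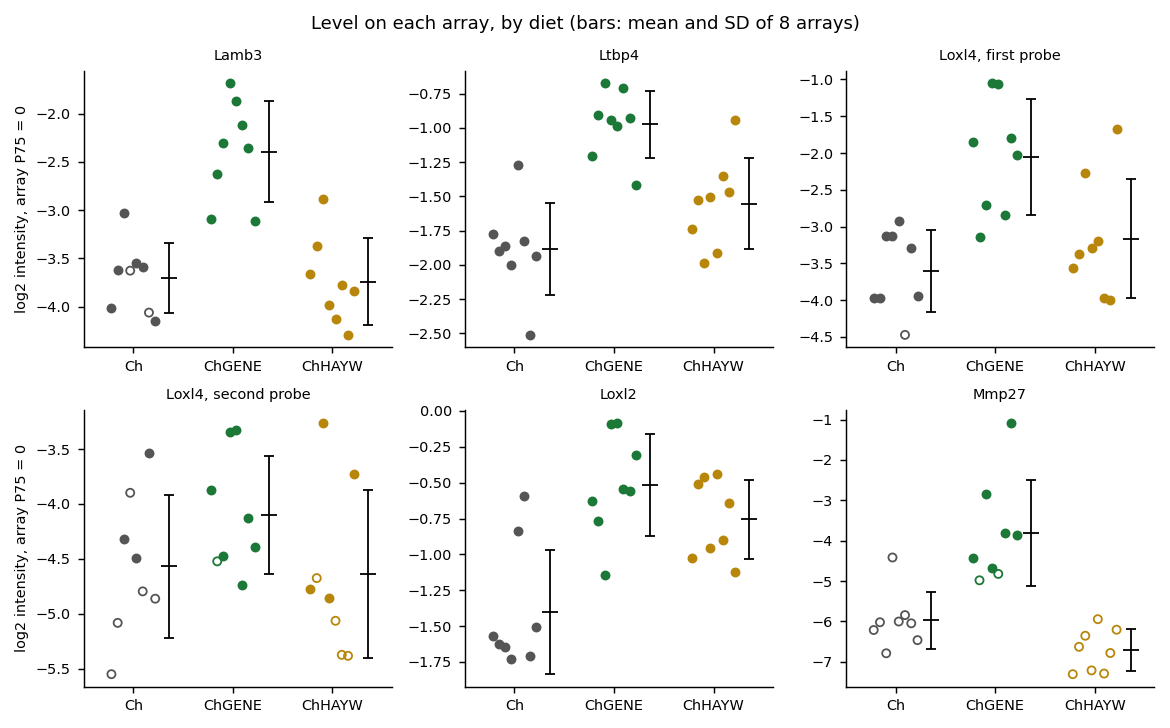
Levels of Lamb3, Ltbp4, both Loxl4 probes, Loxl2 and Mmp27 on each array, by diet. The y axis is log2 intensity with the array's 75th percentile at 0, and bars give the mean and SD of 8 arrays. Each point is 1 array, filled where the probe was above background and open where it was not. Mmp27 is filled on 6 ChGENE arrays and open on every Ch and ChHAYW array, and 6 of 8 Ch arrays lie below every other array for Loxl2.

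The partners of these 3 genes were read beside them. Lama3, the alpha chain that joins Lamb3 in its laminin, gave -0.74 in ChGENE against Ch (SE 0.213, limma adjusted p = 0.0608) and did not pass. Among the chains of more widespread laminins, Lamb1 gave 0.37 (SE 0.161), Lama5 0.08 (SE 0.165), and Lamc1 0.10 (SE 0.121) at probes above background on all 24 arrays, and Lamb1 gave 0.25 without ChGENE 4 and 5. Lama4, an endothelial laminin chain above background on 3 Ch arrays and all others, gave 0.73 (SE 0.231, adjusted p = 0.0608) in ChGENE and 0.55 (SE 0.194, adjusted p = 0.110) in ChHAYW. Of the other latent TGF-beta binding proteins, Ltbp1 gave 0.50 (SE 0.174, adjusted p = 0.0779) and Ltbp3 0.39 (SE 0.180, adjusted p = 0.176) in ChGENE against Ch, while their values in ChHAYW against Ch were -0.02 and -0.01. Without ChGENE 4 and 5 Ltbp3 gave 0.23. Ltbp2 was above background on 0 arrays at 1 probe and on 9 at the other.

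The lysyl oxidase measured on all 24 arrays was Loxl2, which crosslinks fibrillar and type IV collagen. Its levels ran from -1.73 through -1.60 to -0.59 in Ch, from -1.14 through -0.55 to -0.08 in ChGENE, and from -1.12 through -0.77 to -0.44 in ChHAYW. In Ch, 6 of 8 arrays lay below every array of both kiwifruit diets and 2 lay among them. The difference missed the threshold in both diets, at 0.89 (SE 0.199, limma adjusted p = 0.0550) for ChGENE and 0.65 (SE 0.184, adjusted p = 0.110) for ChHAYW, which share the Ch arrays. With close pairs averaged the values were 0.80 (adjusted p = 0.0951) and 0.62 (adjusted p = 0.222), and without ChGENE 4 and 5 the former was 0.74 (adjusted p = 0.105). Lox, Loxl1 and Loxl3 were above background on few arrays, with log2 differences of 0.29, 0.48 and 0.06 in ChGENE against Ch and SEs of 0.425, 0.359 and 0.208.

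Mmp27 encodes a matrix metalloproteinase and was singled out after its values were seen. It was above background on 6 of 8 ChGENE arrays and on 0 of the 16 Ch and ChHAYW arrays. Levels ran from -6.79 through -6.03 to -4.42 in Ch, from -4.98 through -4.14 to -1.07 in ChGENE and from -7.31 through -6.70 to -5.94 in ChHAYW, where the Ch and ChHAYW values only show a signal not well above background. For the folds, each dim Ch and ChHAYW array was set no lower than the dimmest signal above background on it. The ChGENE level was then 4.16-fold that of Ch and 6.27-fold that of ChHAYW. ChGENE arrays not above background kept their measured values, so these folds are not strict lower bounds. The limma adjusted p was 0.0550 against Ch and 0.0596 against ChHAYW, so neither difference passed. It was 0.0951 and 0.149 with close pairs averaged, and 0.0811 and 0.0722 without ChGENE 4 and 5. The size of the difference depended on the processing. Under the other processing settings and tests, its log2 value ran from 0.23 to 2.63 against Ch and from 0.84 to 3.21 against ChHAYW.

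Mmp27 lies on chromosome 8 (chr8:4433723-4433782) in a cluster of 10 metalloproteinase genes whose probes span 365.2 kb. Its neighbours in the cluster were above background on few arrays of the 24: Mmp13 on 0, Mmp12, Mmp10 and Mmp20 on 1, Mmp1b and Mmp8 on 2, Mmp1 and Mmp3 on 3, and Mmp7 on 8. None of them was above background on more than 4 ChGENE arrays. Mmp8, the neutrophil collagenase, was above background only on ChGENE 4 and 5, at -2.96 and -3.17 against -7.38 to -5.31 elsewhere. Mmp9, a gelatinase that neutrophils also carry, was above background on the same 2 arrays only, at -3.86 and -3.96 against -7.40 to -5.42 elsewhere. These are the arrays with high neutrophil markers, whereas their Mmp27 levels (-4.67 and -4.82) were within the range of the other ChGENE arrays.

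Of the metalloproteinases measured on all 24 arrays, Mmp2, a gelatinase of stromal cells, gave 0.58 in ChGENE against Ch (SE 0.186, limma adjusted p = 0.0612). Mmp14, the membrane enzyme that activates Mmp2, gave 0.19 (SE 0.135), and Mmp19 gave -0.29 (SE 0.109, adjusted p = 0.0969). Mmp15 gave -0.29 (SE 0.190) in ChGENE and -0.42 (SE 0.199, adjusted p = 0.199) in ChHAYW against Ch at its bright probe. Its other probe, above background on 19 arrays, gave 0.15 and 0.39. Of the 6 metalloproteinases measured on all arrays, 4 were positive in ChGENE against Ch. Timp1 was higher on ChGENE 4 and 5, at 1.71 and 1.82, than on any other array, where it lay between -0.96 and 0.33. The fit over all ChGENE arrays gave 0.65 (SE 0.347, adjusted p = 0.239) for Timp1 and 0.37 (SE 0.320, adjusted p = 0.492) for Timp2, which also takes part in the activation of Mmp2. Timp2 was likewise highest on ChGENE 4 and 5, and without both arrays Timp1 gave 0.16 and Timp2 gave -0.05. They gave 0.38 and 0.21 with close pairs averaged. Of the 37 bright matrix probes, Timp1 and Timp2 were among the 3 with the widest spread between rats of a diet (SD 0.633 and 0.630, against a median of 0.369 and 0.319 over all bright probes).

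Type I collagen, the main fibre of scar tissue, consists of the Col1a1 and Col1a2 chains. Col1a1 was read above background on all 24 arrays by 2 probes 1304 bases apart on the transcript, and they disagreed. At the probe that ends with the stop codon, levels ran from 0.78 through 0.96 to 1.54 in Ch, from -0.02 through 0.64 to 1.02 in ChGENE and from 0.20 through 0.50 to 1.08 in ChHAYW. It gave -0.47 (SE 0.167, limma adjusted p = 0.0822) in ChGENE against Ch and -0.48 (SE 0.154, adjusted p = 0.110) in ChHAYW against Ch. At the downstream probe (chr10:83639260-83639319) levels ran from -3.57 through -2.33 to -1.30 in Ch, from -2.49 through -1.53 to -0.37 in ChGENE and from -2.68 through -2.10 to -1.28 in ChHAYW. There the differences were 1.01 (SE 0.365, adjusted p = 0.0878) and 0.36 (SE 0.283, adjusted p = 0.419). The diets overlapped at both probes, and their deviations from the diet means correlated at -0.09 over the 24 arrays.

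Col1a2 followed the sign of the downstream probe, with 0.59 (SE 0.209, limma adjusted p = 0.0831) in ChGENE and 0.40 (SE 0.167, adjusted p = 0.159) in ChHAYW against Ch. Col3a1, the chain of type III collagen, gave 0.36 (SE 0.264) and 0.33 (SE 0.209), the former 0.12 without ChGENE 4 and 5. Col5a1, which starts fibrils, gave 0.65 (SE 0.202, adjusted p = 0.0608) in ChGENE against Ch at a probe above background on 7 Ch arrays and all others. No direction is given for Col1a1, since its probes disagree. Over all genes of the set, Loxhd1 included, 28 had more than 1 probe, and 9 of their 37 probe pairs had opposite signs in ChGENE against Ch. Of the 3 pairs above background on all 24 arrays (Bgn, Col1a1 and Fn1), 2 had opposite signs.

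**Figure D2:**
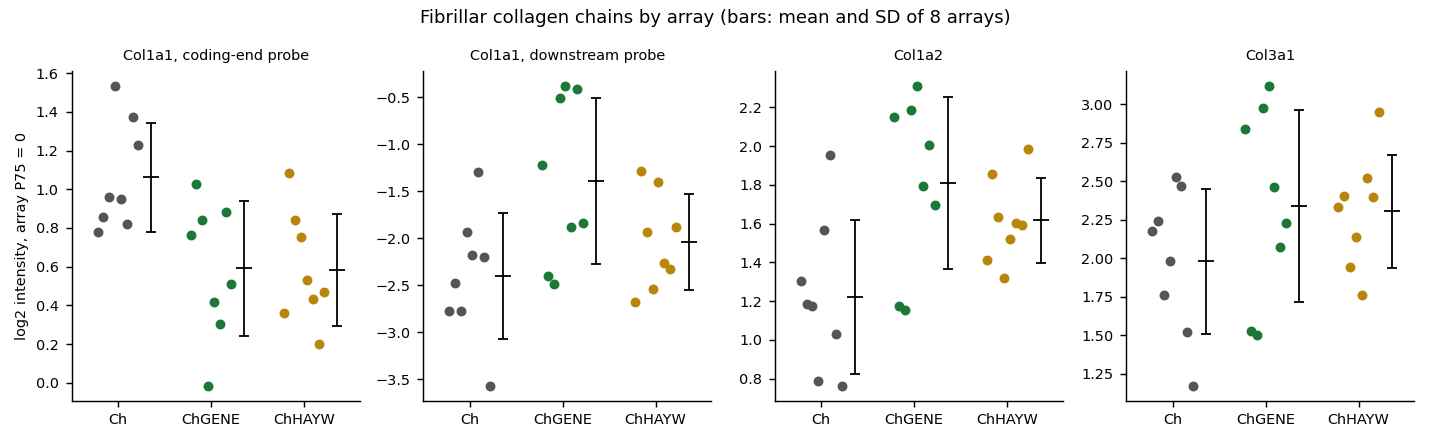
Levels of the fibrillar collagen chains Col1a1 (coding-end and downstream probe), Col1a2 and Col3a1 on each array, by diet. The y axis is log2 intensity with the array's 75th percentile at 0, points are arrays and bars give the mean and SD of 8 arrays. The Ch points are the highest group at the coding-end Col1a1 probe and the lowest at the downstream one, with overlap in each panel.

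The Col4a1 and Col4a2 chains, which form the type IV collagen of most basement membranes, start 77 bases apart on opposite strands, in the stretch printed above. Col4a1 levels ran from -0.50 through 0.43 to 1.40 in Ch, from 0.52 through 0.88 to 1.67 in ChGENE and from 0.12 through 0.48 to 0.81 in ChHAYW. Col4a2 levels ran from -3.86 through -3.35 to -2.75, from -3.56 through -2.78 to -1.96 and from -3.38 through -2.90 to -2.38. The diets overlapped widely. ChGENE minus Ch was 0.48 (SE 0.236) for Col4a1 and 0.52 (SE 0.253) for Col4a2, each with a limma adjusted p of 0.198, and 0.26 and 0.27 without ChGENE 4 and 5. Across the 8 rats of a diet the 2 chains correlated at r = 0.67 in Ch, 0.81 in ChGENE and 0.52 in ChHAYW (rho 0.76, 0.83 and 0.43), with two-sided exact permutation p = 0.0434, 0.0127 and 0.186. After adjustment over 18 tests of partner pairs the p-values were 0.134, 0.134 and 0.279, so the relation was not called in any diet. Without the 2 arrays farthest from the median Col4a1 level, r was 0.69, 0.46 and 0.96. With close pairs averaged r was 0.69, 0.75 and 0.53, and 0 of the 18 pairs passed.

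**Figure D3:**
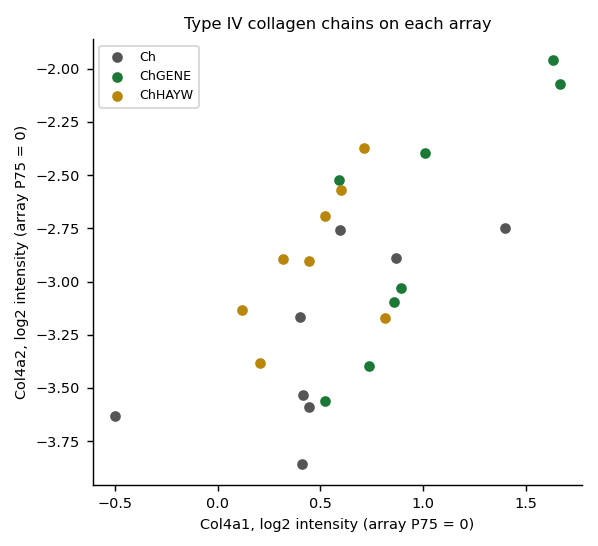
Col4a1 (x axis) against Col4a2 (y axis) on each of 24 arrays, both as log2 intensity with the array's 75th percentile at 0, coloured by diet. The 2 points at the top right are ChGENE 4 and 5.

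Among the other bright matrix genes, Sparc, a collagen-binding glycoprotein, gave 0.82 in ChGENE (SE 0.266, limma adjusted p = 0.0653) and 0.50 in ChHAYW (SE 0.223, adjusted p = 0.180) against Ch. Col6a2, a chain of the beaded filaments around cells, gave 0.52 (SE 0.174, adjusted p = 0.0695) and 0.42 (SE 0.159, adjusted p = 0.127), whereas its partner chain Col6a1 gave -0.13 (SE 0.221) and -0.06 (SE 0.229). The fibril-associated Col14a1 and Col16a1 gave 0.55 (SE 0.186) and 0.71 (SE 0.269) in ChGENE against Ch, and 0.36 and 0.40 without ChGENE 4 and 5. Col18a1 gave -0.14 (SE 0.146) in ChGENE and -0.23 (SE 0.110, adjusted p = 0.197) in ChHAYW against Ch. In ChGENE against Ch, Col19a1 gave -0.12 (SE 0.158) and Col9a1 gave -0.19 (SE 0.148) at its bright probe. Fn1 gave -0.03 (SE 0.205) and 0.44 (SE 0.222) at its 2 probes, and without ChGENE 4 and 5 it gave -0.31 (SE 0.136, adjusted p = 0.172) and 0.25 (SE 0.219, adjusted p = 0.530). Col12a1, a fibril-associated chain above background on 3 Ch, 8 ChGENE and 7 ChHAYW arrays, gave 0.84 (SE 0.268, adjusted p = 0.0612) in ChGENE and 0.79 (SE 0.178, adjusted p = 0.110) in ChHAYW against Ch, the former 0.48 without ChGENE 4 and 5.

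The matrix probes as a whole were read beside all probes. In ChHAYW against Ch 0 of 127 passed and 0.0% of all probes did, with 33 matrix probes (22.8% of all probes) past the unadjusted threshold, 10 higher (3.05%) and 23 lower (19.7%). With close pairs averaged these were 3 (2.36%, against 2.07% of all probes) and 16 (12.6%, against 16%). The methods' t-test also passed 0. In ChGENE against ChHAYW 0 of 127 passed by either test and 0.00659% of all probes did in limma, 0.00329% in each direction. Past the unadjusted threshold were 15 matrix probes (5.93% of all probes), 12 higher in ChGENE (3.09%) and 3 lower (2.85%). These were 7 (1.96%) and 2 (2.12%) with close pairs averaged, and 6 (3.38%) and 0 (2.95%) without ChGENE 4 and 5. In ChGENE against Ch 24.6% of all probes passed unadjusted, and 22 matrix probes were higher in ChGENE than in Ch (17.3%, against 3.47% of all probes) and 23 were lower (18.1%, against 21.1%). Of the 23 lower ones 1 was above background on all arrays, 12 on some and 10 on none. The last were 58.8% of the 17 matrix probes above background nowhere, against 66.9% of all such probes (62.8% in ChHAYW against Ch). Over the 37 bright probes 9 were higher (24.3%, against 3.59%), 1 was lower (2.7%, against 7.85%) and 29 were positive (78.4%, against 42.8%), and the median difference was 0.29 against -0.05 over all bright probes. In ChHAYW against Ch 4 of the 37 were higher (10.8%, against 2.9%) and 2 were lower (5.41%, against 7.42%), with a median of 0.09 against -0.04, and 21 were positive (44.3% of all bright probes were). With close pairs averaged 1 of the 37 was higher in ChHAYW (2.7%, against 1.87%), 1 was lower (2.7%, against 5.49%) and 21 were positive (against 44.4%).

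The ChGENE counts moved without ChGENE 4 and 5. Without both, 6 of the 37 bright probes were higher than in Ch (16.2%, against 2.81%), 0 were lower (against 5.28%) and 27 were positive (73.0%, against 46.3%), and the median was 0.14 against -0.02. With close pairs averaged, 8 were higher (21.6%, against 2.44%), 1 was lower (2.7%, against 5.99%) and 29 were positive (78.4%, against 44.1%), and the median was 0.21 against -0.04. Between the cultivars, 32 of the 37 were positive for ChGENE minus ChHAYW (86.5%, against 48.7%), with a median of 0.19 against -0.01, and 4 passed unadjusted as higher (3.35%) and 0 as lower (3.55%). Without ChGENE 4 and 5 this was 24 of the 37 (64.9%, against 52.9%), with a median of 0.10 against 0.02, 2 higher unadjusted (against 4.43%) and 0 lower (against 3.33%). Averaging the close pairs gave 29 (against 49.8%), with 3 higher (against 2.19%) and 0 lower (against 2.18%).

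**Figure D4:**
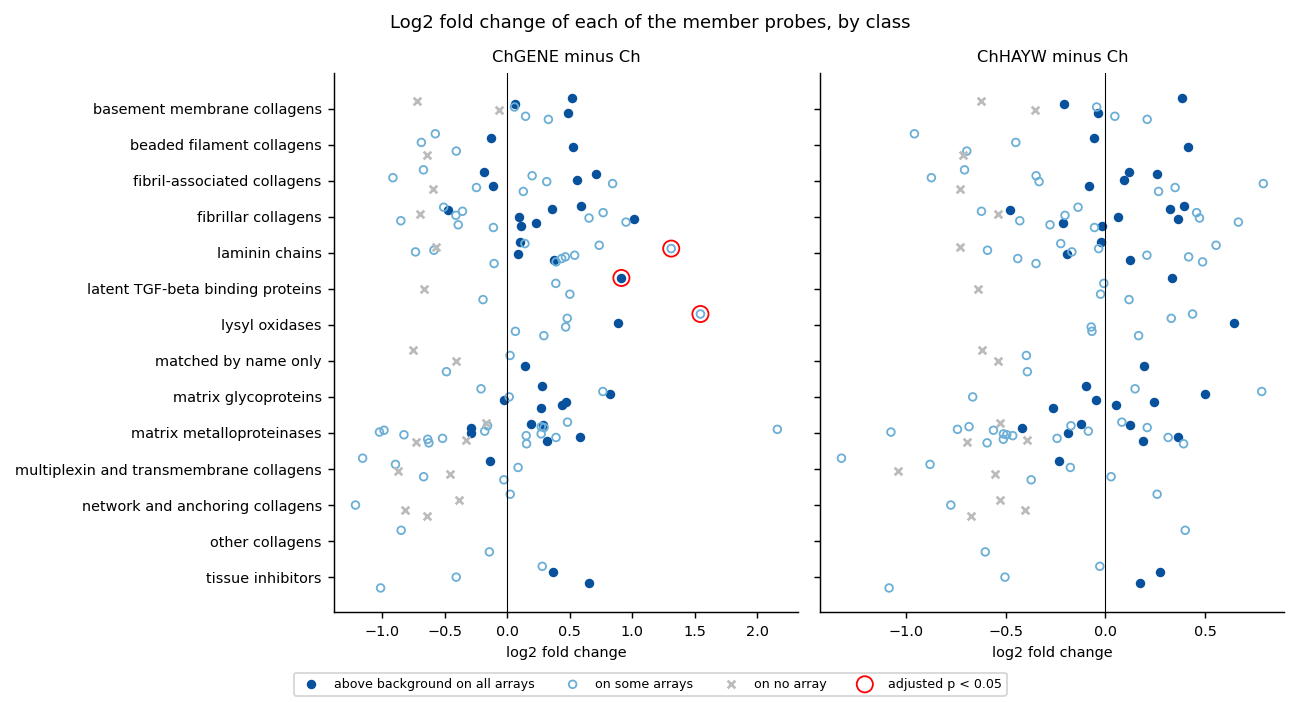
Log2 fold change (x axis) of each of the 127 probes in ChGENE minus Ch (left) and ChHAYW minus Ch (right), by class of gene (y axis). Filled points were above background on all 24 arrays, open points on some and crosses on none, and red rings mark an adjusted p under 0.05. The 3 ringed points are Lamb3, Ltbp4 and Loxl4, and all 17 crosses lie left of 0 in both panels.

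Cell type markers were set beside the matrix profile of each rat. A rat's profile is the median deviation of its 37 bright matrix probes from each probe's median over 24 arrays. It ran from -0.37 through a median of -0.08 to 0.23 in Ch, from -0.25 through 0.15 to 0.54 in ChGENE and from -0.15 through -0.04 to 0.13 in ChHAYW. ChGENE 4 and 5 were highest, at 0.54 each, and the other ChGENE rats reached 0.24. The same 2 arrays had the highest summed stellate cell markers (11.8 and 11.4 times the array's 75th percentile, against 5.62 to 8.31 on the rest) and the highest Kupffer cell markers (215 and 221, against 51.0 to 178). Elsewhere the Kupffer sums and the profile did not always go together. ChGENE 8 and ChHAYW 5 had Kupffer sums of 178 and 172 with profiles of -0.03 and -0.07. Ch 4 had a profile of 0.23 with a Kupffer sum of 70.9. The stellate sums of ChGENE 1 and Ch 4 were the highest of the rest, at 8.31 and 7.80, with profiles of 0.24 and 0.23. By contrast, Ch 8 had a stellate sum of 7.1 with the lowest profile, -0.37. Of 12 stellate cell markers, 10 were above background on all arrays. The list had 0 members that passed in any comparison and 9 that were positive in ChGENE against Ch (median 0.40), among them Pdgfrb at 0.78 (SE 0.301, limma adjusted p = 0.109), while Lrat, the retinoid-storing enzyme of quiescent stellate cells, gave -0.59 (SE 0.194, adjusted p = 0.0672). All 10 Kupffer cell markers were positive (median 0.52) and 0 passed. Of all probes above background on all arrays, 42.8% were positive in ChGENE against Ch. These marker counts include ChGENE 4 and 5, the arrays with the highest stellate and Kupffer sums. Of 7 neutrophil markers, 4 were positive and 0 passed, and Elane and Ngp were above background on 1 array each. All 10 hepatocyte markers were above background on all arrays (3 positive, median -0.37, 0 passed). Positive in ChGENE against Ch were 5 of 9 sinusoidal endothelial, 3 of 7 cholangiocyte and 1 of 5 mesothelial markers, and 0 passed. In ChHAYW against Ch 3 of 12 stellate cell markers (median -0.10) and 7 of 10 Kupffer cell markers (median 0.24) were positive. Of all bright probes 44.3% were positive in that comparison. The part of these markers in the matrix differences was not tested.

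**Figure D5:**
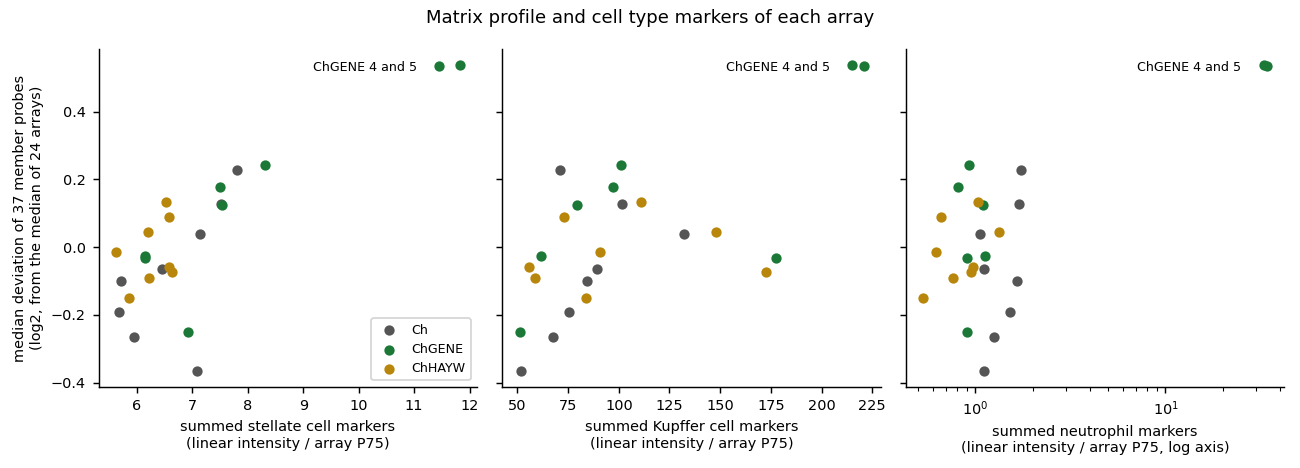
Matrix profile of each rat (y axis, median deviation of 37 bright matrix probes on the log2 scale) against the summed markers of stellate cells, Kupffer cells and neutrophils (x axes, linear intensity over the array's 75th percentile, the last on a log axis). ChGENE 4 and 5 lie at the top right of all 3 panels, at 0.54.

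Of the genes that fold, trim, bind or activate matrix, 0 passed in any of the 6 lists and 3 comparisons. As a background for the list counts below, 10287 of all 30367 probes were positive in ChGENE and 10128 in ChHAYW against Ch. Among probes above background on all arrays the shares were 42.8% and 44.3%. The list counts include the ChGENE arrays with high neutrophil markers. Values without those arrays, or with close pairs averaged, are not given here for these lists or their genes. Of the measured genes 3 of 6 basement membrane partners, 3 of 12 receptors, 5 of 11 genes of latent TGF-beta and 9 of 21 other proteases and inhibitors were positive in ChGENE against Ch. In the collagen folding list 19 of 20 genes were measured and 13 were positive in ChGENE against Ch, among them Plod1, a lysyl hydroxylase, at 0.34 (SE 0.107, limma adjusted p = 0.0608), Bmp1, which trims procollagen, at 0.46 (SE 0.166) and Serpinh1, a collagen chaperone, at 0.44 (SE 0.166). Lepre1, a prolyl hydroxylase, gave -0.36 (SE 0.122). Nid1, which links laminin to type IV collagen, gave 0.77 (SE 0.227, adjusted p = 0.0608). Of the 21 small proteoglycans and elastic fibre partners 17 were positive in ChGENE and 8 in ChHAYW against Ch, including Dcn, which binds collagen fibrils, at 1.07 (SE 0.492) and 0.93 (SE 0.351). Among 11 genes of latent TGF-beta and its activation, Ctgf, a TGF-beta target, gave -0.65 (SE 0.214, adjusted p = 0.0675) in ChGENE and -0.57 (SE 0.221, adjusted p = 0.130) in ChHAYW. Of the other proteases, the lysosomal Ctsl1 gave -0.48 in ChGENE against Ch (SE 0.109, adjusted p = 0.0560).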

How the data were processed

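Liver RNA was labelled with Cy3 and hybridised by the authors, with 1 rat per array according to the labels. The deposited labels name a miRNA labelling kit, the study's methods a one-colour gene expression kit. The deposited values are intensities from Agilent Feature Extraction 10.10.1.1 on a linear scale, with background and spatial trends removed by that software and no scaling between arrays. Probe coordinates are rn4, per the file headers. The value table the authors deposited held the same intensities (0 spots differed). How the study scaled its arrays is not stated in the sources used.

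Spots carrying the software's non-uniformity or population flags were removed, log2 intensities of a probe's spots were averaged, and each array's 75th percentile was subtracted. All 30367 probes were fitted with limma 3.58.1 (lmFit, eBayes; R 4.3.3) on the 16 arrays of each comparison, with Benjamini-Hochberg adjustment over all probes. The fit was tested on simulated data. Precision is set by 8 arrays a diet, and 0 spots were saturated. Python 3.11.15, pandas 2.3.3, numpy 2.4.6, scipy 1.17.1 and matplotlib 3.10.9 were used for the rest. Where no array of a group was above background, its arrays were set no lower than the dimmest signal above background before the fold was taken.

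Genes named in the text are those called with their other probes, the 8 of lowest p in each direction and comparison among probes above background on every array of the higher group, the members above background on all 24 arrays, partner pairs, and up to 3 genes per partner list. Not every member is reported here by name. The other lysyl oxidases, Ltbp genes and cluster neighbours of Mmp27 stand for their class. Mmp27, Mmp8, Mmp9 and the arrays singled out were picked once values had been seen. The members, classes and lists were chosen with earlier results of these data known. Alternatives were background correction, normalization, dim probe filter, test, array weights, replicate block and leaving out arrays. Replicate numbers did not pair the rats. The p-values measure the spread between arrays of a diet on 1 slide, taken as separate rats as labelled.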

Additional observations from a re-analysis of the deposited data

Results flagged for a closer look

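For each of 52 named probes and each diet, the highest or lowest rat was set against the nearest of the others, and 8 of 156 groups had a gap that, divided by the whole range, exceeded Dixon's 95% critical value. Chance alone gives about 1 in 20 groups. Mmp27 was highest on Ch 4, at -4.42 with the next Ch rat at -5.84, and neither was above background. Mmp19 was also highest on Ch 4, at -1.74 against -1.90. Timp2 was highest on Ch 6, at 2.97 against 2.19. Col5a2 was highest on Ch 7 at its second probe, at -0.0089 against -1.16. Col27a1 was highest on ChGENE 7, at -2.22 against -3.33. On ChHAYW 3, Bgn was lowest at its second probe, at -0.82 against -0.20, and Col14a1 was lowest at its brighter probe, at -0.17 against 0.89. Lama4 was lowest on ChHAYW 4, at -4.29 against -3.91. Ch 4 was the array with the fewest matrix probes above background, 43, and it was the highest Ch array at 17 of the 37 bright matrix probes.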

How the results depend on the processing

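The count of matrix probes called in ChGENE against Ch was 3 as reported, 49 with normexp background correction (41 lower), 28 when scaled to the median, 5 with spike-in scaling and with trend and robust eBayes, 20 with all 24 arrays in 1 fit, 26 with array weights, 0 with the replicate block, and 0 with close pairs averaged or with ChGENE 4 and 5 left out. Leaving out 1 array at a time gave 0 to 24. Lamb3 and Ltbp4 passed in 6 of these 16 fits (without Ch 3, Ch 4, Ch 5, ChGENE 1, ChGENE 2 or ChGENE 8) and Loxl4 in 3 (without Ch 3, Ch 5 or ChGENE 2). In ChHAYW against Ch the count was 0 as reported, 54 with normexp, 13 scaled to the median, 26 with array weights and 0 to 14 leaving out 1 array. In ChGENE against ChHAYW it was 0 as reported, 1 with quantile normalization or a filter on dim probes, 2 when scaled to the median, with cyclic loess, with trend and robust eBayes, in the fit of all 24 arrays and with array weights, and 0 to 2 leaving out 1 array. Partner pairs passing numbered 0 as reported, 1 scaled to the median and 12 with spike-in scaling. Under the settings first counted in this section, the share of all probes called is not given here. These counts therefore cannot show whether a shift was particular to matrix probes. The cause of these shifts was not tested.

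Spike-in scaling moved the median of all probes from -0.16 to 0.31 in ChGENE against Ch and from -0.18 to 0.48 in ChHAYW against Ch. Under it these signs turned in ChGENE against Ch: Col18a1 0.33, Col19a1 0.36, Col27a1 0.36, Col6a1 0.34, Col9a1 0.28, Mmp15 0.18 and Mmp19 0.18. In ChHAYW against Ch they turned for Col18a1 0.42, Col1a1 0.18 at the coding-end probe, Col4a5 0.45, Col5a2 0.44, Eln 0.39 and Lama5 0.46. They also turned there for Lamb3 0.62, Loxl4 0.58 at the second probe, Mmp15 0.23 and Mmp19 0.47. Between the cultivars the coding-end Col1a1 probe turned, at -0.18. Normexp turned Lama4 (-0.15 and, in ChHAYW, -0.28), Loxl4 (-0.25 at the second probe and, in ChHAYW, -0.15 at the first), Col9a2 -0.15, Fbn1 -0.13 and Loxhd1 0.013. Quantile normalization turned Col18a1 (0.0070) and, in ChHAYW, Lamb3 (0.042) and the second Loxl4 probe (0.060). Cyclic loess turned Col18a1 (0.023) and, in ChHAYW, the second Loxl4 probe (0.071). Scaling to the median turned Col1a1 between the cultivars (-0.028), and array weights turned the second Loxl4 probe in ChHAYW (0.19) and Loxhd1 (0.030). Leaving out 1 array turned Col27a1 in ChGENE (-0.30 to 0.11). In ChHAYW it turned Lamb3 (-0.16 to 0.062) and the second Loxl4 probe (-0.27 to 0.076). The first Loxl4 probe kept its sign there (0.22 to 0.56). Between the cultivars it turned Col1a1 (-0.055 to 0.094), Col6a4 (-0.45 to 0.032) and Loxhd1 (up to 0.056). Same-numbered rats deviated together in 2, 2 and 3 of 8 pairs, so the replicate block joins rats that share only a number. At the 17 of 127 matrix probes above background nowhere, values give only a bound.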

Other observations

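ChGENE 5 was the highest of the 8 ChGENE arrays at 19 of the 37 bright matrix probes and ChGENE 4 at 2, while ChGENE 3 was the lowest at 18. Over all bright probes the medians of ChGENE 4 and 5 deviated by -0.12 and -0.07, so their matrix probes lay above the rest of the same arrays. Among the 24 arrays, Col4a3bp, which is no matrix gene, varied least of the 37 bright probes between rats of a diet (SD 0.160), and the downstream Col1a1 probe varied most (SD 0.706, wider than 94.8% of all bright probes). Of the member promoters in RefSeq, 49.3% held GGGCGG and 26.0% held CCAAT in the 250 bases before the start, against 30.5% and 34.0% of all promoters, given as a description only.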
